A study of Homo sapiens with 6 samples.

Results

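The H23 sublibrary is 1 of 3 pools of single guide RNAs (sgRNAs) that together cover the protein-coding genes in a CRISPR interference (CRISPRi) screen for regulators of opioid receptor down-regulation. Its members were the sgRNAs with at least 50 reads in either H23 library and a larger share of reads in H23 than in the H17 or H456 libraries. The rule gave 33390 sgRNAs, made up of 32820 that target 6145 genes and 570 nontargeting control (NTC) sgRNAs, of 103566 such sgRNAs in the 3 sublibraries and 209070 listed. The 6 libraries of the series were 1 from the bottom and 1 from the top fluorescence quartile of each sublibrary, so no quartile had a replicate.

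Both H23 libraries came from HEK293 FLP In cells, a human embryonic kidney line with a landing site for a transgene, that carried the SSF-DORmct-APEX2 transgene. It encodes a tagged delta opioid receptor with the tail sequence that sends the mu opioid receptor back to the cell surface, fused to the peroxidase APEX2, under a constitutive promoter. The cells also expressed dCas9-KRAB-BFP, and clonal populations had been picked for strong knockdown. By the sample labels, cells received the pool at a multiplicity of infection of about 0.2, were selected with puromycin at 0.75 μg/ml for 3 days and were assayed after 8 days. Every cell had 10 μM DADLE, an opioid peptide agonist, for 90 min before the 15 min incubation with 100 μM of the dye AUR, so no untreated arm exists and agonist-dependent and basal effects on the signal cannot be told apart. The study's methods give a longer agonist time, a higher dye concentration and fewer days before the assay than the labels do. Its results section gives 8 days of knockdown, as the labels do. The files do not settle which values applied. The sgRNAs of the sorted cells were amplified from genomic DNA in 27 PCR cycles.

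In CRISPRi, an sgRNA brings an inactive Cas9 joined to a repressor domain to a promoter, and transcription from that promoter drops. Receptors internalised after agonist either return to the surface, through complexes such as Retromer, or go on to lysosomes and are degraded. APEX2 is a heme enzyme that uses peroxide to turn AUR into a fluorescent product, so a cell with less receptor fusion is dimmer. The phenotype of an sgRNA is the log2 ratio of its read shares, top library to bottom library, after subtraction of the NTC median. A negative value means that cells with this sgRNA were more often dim. For a gene, the phenotypes of the sgRNAs at one transcription start site were averaged, and the SD is that between these sgRNAs.

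Quartiles were taken from the sample titles, whereas the library names end in the letter of the other quartile, and with those names every sign below would turn. The H23 libraries held 40946430 reads (bottom) and 47989659 reads (top), with a median of 1155 and 1356 reads per member. The H23 NTC sgRNAs had an SD of 0.28, against 0.47 in H17 and 0.30 in H456, and counting of reads alone accounts for an SD of 0.0586 at the median NTC sgRNA. The SD over NTC sgRNAs went from 0.40 in the 143 with the fewest reads (110 to 1703 over both libraries) to 0.19 in the 142 with the most (3366 to 7022).

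A gene was tested with an exact two-sided Mann-Whitney test that set its sgRNAs against the NTC members, adjusted by Benjamini-Hochberg over the 18905 genes of all sublibraries, and is called here at an adjusted p under 0.05. Because each quartile is 1 library, the units of the test are sgRNAs within a single pair of sorted libraries, and p-values do not measure the spread between cultures. Of 6016 H23 genes tested, 39 were called negative (0.648%) and 10 positive (0.166%). At a mean of −0.5 or below there were 55 genes (0.914%), and at 0.5 or above there were 7 (0.116%). The other pools had 12 negative and 2 positive calls in 5969 genes (H17) and 21 and 6 in 6920 genes (H456), a difference that was not tested. By size, 156 genes in H17 and 59 in H456 had a mean of −0.5 or below, and 14 and 12 had 0.5 or above. Over all H23 genes 3141 (52.2%) lay below 0, the share against which the counts of list members below 0 are to be read. The median over all H23 genes was −0.01 and the SD of gene means was 0.16. In 48 of the 49 called genes every sgRNA had the same sign, which the rank test itself favours. Of the 5806 H23 genes tested with 5 sgRNAs, 311 had all of them negative and 257 all positive.

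Of the targeting members, 453 lay below the 1st percentile of the NTC sgRNAs at −0.74 (1.38%) and 326 above their 99th percentile at 0.68 (0.993%). By the targeted strand, the median phenotype was −0.00881 over 16288 plus-strand members and −0.00634 over 16532 minus-strand members. Neighbouring sgRNAs of a gene on one strand within 19 bases of each other differed by a median of 0.23 (5987 pairs), and those over 100 bases apart by 0.23 (7632 pairs). At the read minimum, 18 members whose higher count was 50 to 59 had phenotypes from −6.05 to 2.59 with a median of −0.35, and 19 sgRNAs left out at 40 to 49 ranged from −3.15 to 0.58 with a median of −0.44.

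The lowest gene of the sublibrary was VPS29, a subunit of the Retromer complex that retrieves membrane proteins from endosomes, at −1.60 ± 0.46 (SD, n = 6 sgRNAs, exact adjusted p = 9.2e-09). The next was RAD9B, a checkpoint clamp protein, and the files list 4 of the same sgRNAs under both genes. The genes stand head to head, with 220 bases from one start to the other. RefSeq windows of 300 bases, from 250 before each start to 50 from it on, share 281 bases. The window of VPS29 lies on chromosome 12 at chr12:110502062-110502361 (GRCh38.p14, minus strand), that of RAD9B at chr12:110502081-110502380 on the plus strand. The VPS29 window is shown 5′ to 3′ because the strongest pair of genes in the pool is read from it, with the bases between both starts in capitals:
VPS29 and RAD9B: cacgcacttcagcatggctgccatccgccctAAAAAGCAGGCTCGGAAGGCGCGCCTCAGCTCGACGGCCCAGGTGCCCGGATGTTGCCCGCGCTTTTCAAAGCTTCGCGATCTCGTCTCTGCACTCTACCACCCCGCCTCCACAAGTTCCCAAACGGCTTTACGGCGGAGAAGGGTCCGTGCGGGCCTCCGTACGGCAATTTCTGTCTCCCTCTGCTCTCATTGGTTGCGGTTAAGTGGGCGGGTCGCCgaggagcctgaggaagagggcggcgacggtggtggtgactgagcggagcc

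The sgRNAs separate the pair only in part. The 4 shared sgRNAs had 2318, 3780, 2198 and 825 reads in the bottom library and 626, 1132, 870 and 472 in the top library, or phenotypes of −2.14, −1.99, −1.58 and −1.05. The 2 sgRNAs listed under VPS29 alone went from 1604 to 558 reads and from 1901 to 1078 reads (−1.77 and −1.07). The 2 listed under RAD9B alone disagreed, with 1203 and 324 reads for one (−2.14) and 833 and 1037 for the other (0.07). All 6 VPS29 sgRNAs lay below the 1st percentile of the NTC sgRNAs. VPS29 remained called in each of 15 alternative analyses, although those on centring and the median could not change a call. RAD9B, at −1.47 ± 0.86 (SD, n = 6 sgRNAs, exact adjusted p = 0.0421), had a mean of −1.04 over its own 2 sgRNAs and was then not called (exact adjusted p = 0.88).

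The other core subunits of Retromer were lower on average but were carried by fewer sgRNAs. The paper, whose hit threshold used effect and p-value together, lists VPS35 and VPS26A among its hits. It also reports that siRNA knockdown of either increased loss of this receptor fusion after agonist. VPS35, the scaffold of the complex, had −0.85 ± 0.75 (SD, n = 5 sgRNAs, exact adjusted p = 0.387). Of its sgRNAs, 3 went from 838 to 338, 1745 to 831 and 2014 to 1022 reads from the bottom to the top library (−1.56, −1.32 and −1.23), whereas the others were at −0.41 and 0.25. VPS26A had −0.71 ± 0.92 (SD, n = 5 sgRNAs, exact adjusted p = 0.573). Its strongest sgRNA, with 2117 reads in the bottom and 544 in the top library, was at −2.21, and 2 others at −0.72 and −0.71, while the remaining pair was at −0.02 and 0.11. Without the strongest sgRNA, the mean of VPS26A was −0.33 and that of VPS35 −0.68. VPS26B, the second form of this subunit, had 5 negative sgRNAs and a mean of −0.26.

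Among the partners of Retromer in this pool, the mean was −0.18 for ANKRD27, a Rab effector that binds VPS29, −0.16 for SNX12, 0.07 for SNX5 and 0.23 for SNX1, which are sorting nexins, and none was called. Of the 8 listed members in H23, 6 were below 0 and 1 was called, with a median of −0.22 against −0.01 over all H23 genes. The related recycling complex Retriever and its partner complex CCC had 8 members, of which 6 were below 0 and 1 was called, with a median of −0.13. The called gene was CCDC22, a CCC scaffold, at −0.43 ± 0.16 (SD, n = 5 sgRNAs, exact adjusted p = 0.0474), with sgRNAs from −0.60 to −0.18. SNX17, the cargo adaptor of Retriever, had 0.26. The paper also names VPS29 as a subunit of Retriever, but VPS29 was counted here in the Retromer list alone.

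Among the lists with over 3 members in H23, that of genes that build the small ribosomal subunit was the one with every mean below 0. All 20 H23 genes of the small-subunit processome and its small nucleolar particles had a negative mean, with a median of −0.34 against −0.01 over all H23 genes, and 4 were called. RCL1, needed to cut the ribosomal RNA precursor, led with 5 sgRNAs that went from 1962 to 649, 1051 to 382, 2602 to 1192, 1150 to 627 and 1851 to 1029 reads from the bottom to the top library. Their phenotypes lay between −1.84 and −1.09, all below the 1st percentile of the NTC sgRNAs. The other called genes were PDCD11 (−0.93), IMP4 (−0.86) and DDX10 (−0.77), each with 5 sgRNAs of negative sign and adjusted exact p-values of 0.0336, 0.0039 and 0.0384. WDR3 (−0.75) and PWP2 (−0.69), both scaffold proteins of the processome, each had 1 positive sgRNA of 5 and were not called.

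Of 34 proteins of the small subunit itself, 33 were below 0, with a median of −0.31, and 4 were called. These were RPSA at −0.67 ± 0.29, RPS18 at −0.62 ± 0.29, RPS7 at −0.51 ± 0.28 and RPS6 at −0.44 ± 0.13 (SD, n = 5 sgRNAs each). RPS24 (−0.55) reached −0.5 without a call. The list held 1 gene above 0, RPS16 at 0.06. It also holds RPS4Y1 and RPS4Y2, close copies of RPS4X. Whether sgRNAs against these copies share targets was not tested.

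Of 53 proteins of the large subunit, 44 were below 0, with a median of −0.14, and RPL34 (−0.55 ± 0.15), RPL17 (−0.52 ± 0.21) and RPL31 (−0.46 ± 0.18; SD, n = 5 sgRNAs each) were called. RPL37A had −0.59 with an adjusted exact p of 0.117. Among 19 genes of large-subunit assembly, 13 were below 0 with a median of −0.12. SDAD1, which acts in the export of large-subunit precursors, was the called gene at −0.92 ± 0.28 (SD, n = 5 sgRNAs, from −1.37 to −0.68; exact adjusted p = 2.9e-05). Of 15 genes of RNA polymerases I and III, 7 were below 0, the median was 0.02, and POLR1B, the second-largest subunit of polymerase I, was called at −0.46 ± 0.15. The called genes of the ribosome lists kept their sign without the strongest sgRNA, but RCL1 and SDAD1 were the ones that remained called then.

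In translation initiation, 27 of 36 genes were below 0, with a median of −0.08, and 2 were called. EIF3G, an eIF3 subunit, had −0.64 ± 0.15 (SD, n = 5 sgRNAs, exact adjusted p = 0.00055), and its sgRNAs ranged from −0.80 to −0.48. EIF4G2, a scaffold for initiation without the cap-binding factor, had −0.51 ± 0.21 (SD, n = 5 sgRNAs, exact adjusted p = 0.0258). EIF4E, which binds the cap, had −0.73 ± 0.52 with an adjusted exact p of 0.0518, and this became 0.0489 when the gene was compared with all targeting sgRNAs. EIF3B had −0.52, and −0.25 without its strongest sgRNA. In the mTOR list, 12 of 20 genes were below 0 with a median of −0.11 and none was called. RPTOR, which brings substrates to mTOR, had 5 negative sgRNAs and a mean of −0.62, which was −0.24 without the sgRNA at −2.14.

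RPS27A, which encodes ubiquitin fused to a small-subunit protein, was called at −0.84 ± 0.36 (SD, n = 5 sgRNAs, exact adjusted p = 0.00023). Its sgRNAs had 1347, 933, 1234, 1289 and 1373 reads in the bottom and 620, 551, 868, 992 and 1197 in the top library. UBB, a polyubiquitin gene, had −0.37 ± 0.18 (SD, n = 5 sgRNAs, exact adjusted p = 0.146), with all 5 sgRNAs negative but no call. The 49 proteasome genes had a median of 0.01, with 22 below 0 and none called.

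In the secretory pathway, each of the following lists held 1 called gene. PREB, the exchange factor that starts COPII vesicle formation, had −0.93 ± 0.33, with 4 sgRNAs between −1.23 and −0.92 and 1 at −0.38 (SD, n = 5 sgRNAs, exact adjusted p = 0.00017). UNC50, a Golgi membrane protein, had −0.98 ± 0.49 (SD, n = 5 sgRNAs, from −1.61 to −0.37; exact adjusted p = 0.00033). SEC61A1, the pore of the translocon in the endoplasmic reticulum (ER), had −0.61 ± 0.31 at one start site (SD, n = 5 sgRNAs, exact adjusted p = 0.0211). Of the 24 genes of ER translocation and insertion, 17 were below 0 with a median of −0.11 and 1 was called. The 5 genes of the coats had a median of −0.13 and the 14 Golgi tethering genes −0.02, with 1 called in each.

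The 17 genes of the heme and iron list had a median of −0.00142, with 9 below 0 and 8 above 0. In heme synthesis, ALAD had −0.39 ± 0.22 (SD, n = 5 sgRNAs) with an adjusted exact p of 0.209 and was not called. HCCS, which attaches heme to cytochrome c, was in no list and was called at −0.47 ± 0.12 (SD, n = 5 sgRNAs, exact adjusted p = 0.0165).

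CCS, the copper chaperone of superoxide dismutase, had −1.02 ± 0.38 (SD, n = 5 sgRNAs, exact adjusted p = 2.9e-05). GSTP1, a glutathione transferase, had −0.95 ± 0.15 (SD, n = 5 sgRNAs, exact adjusted p = 1.5e-05), and its 5 sgRNAs lay close together, from −1.14 to −0.80. These were the 2 called genes of the 18 in the peroxide, thioredoxin and glutathione list, whose median was −0.02. Both remained called in each of the 15 alternative analyses, of which those on centring and the median could not change a call.

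CCS had a neighbour that was measured in another pool. CCDC87, a coiled-coil protein, starts 122 bases from CCS on the opposite strand, and its sgRNAs belonged to H17. The 5 CCDC87 sgRNAs had a phenotype of −0.92 ± 0.56 (SD, exact adjusted p = 0.0294), with 65 and 15, 1702 and 704, 658 and 297, 2762 and 1374, and 1311 and 867 reads in the H17 bottom and top libraries. The nearest CCS sgRNA lay 177 to 394 bases from them, so no sgRNA was shared. The windows of 300 bases around the starts share 221 bases, at chr11:66592935-66593234 for CCS (GRCh38.p14, plus strand) and chr11:66593014-66593313 for CCDC87 (minus strand). The CCS window is shown 5′ to 3′ because genes of separate pools start in it, with the bases between the starts in capitals:
CCS and CCDC87: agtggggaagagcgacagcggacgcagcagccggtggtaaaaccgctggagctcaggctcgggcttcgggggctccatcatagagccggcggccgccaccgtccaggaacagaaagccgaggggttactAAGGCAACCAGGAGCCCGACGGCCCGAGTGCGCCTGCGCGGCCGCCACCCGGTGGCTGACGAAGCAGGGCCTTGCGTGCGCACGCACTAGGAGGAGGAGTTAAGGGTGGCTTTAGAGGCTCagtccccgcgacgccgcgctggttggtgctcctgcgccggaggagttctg

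Head-to-head promoters as close as 1000 bases, with both genes measured, were found for 11 of the 49 called genes (22.4%) and for 727 of all 6016 H23 genes (12.1%). The match rests on RefSeq starts, which were given for 4828 H23 genes. Genes without one could not be matched, although they count in the totals. The 11 include both VPS29 and RAD9B, each as the neighbour of the other. The difference between the shares was not tested. Besides the genes named above, the neighbours of UNC50, PDCD11, IMP4, RPS27A, RPS18, MCM3AP, RPP38 and MIS12 were not called, and their means lay between −0.30 and 0.08. COA5, whose start is 77 bases from that of UNC50, had −0.15 in H456, and CLHC1, 115 bases from RPS27A, had 0.08 in H17. VPS52, 110 bases from RPS18, had 0.05 in H456.

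RNA-processing genes moved in both directions. CBLL1, a RING-finger protein of the m6A writer complex, had −0.96 ± 0.22 (SD, n = 5 sgRNAs, from −1.16 to −0.72; exact adjusted p = 2.9e-05), while the other 3 writer genes of the pool, WTAP, METTL14 and RBM15, lay between −0.06 and 0.08. FIP1L1, a subunit of the polyadenylation machinery, had −0.80 ± 0.33 (SD, n = 5 sgRNAs, exact adjusted p = 0.00094). In mRNA decay, CNOT4, a ubiquitin ligase of the CCR4-NOT complex, was called at −0.77 ± 0.13, and its 5 sgRNAs had 1492, 1639, 1430, 1550 and 1136 reads in the bottom and 923, 1109, 991, 1120 and 898 in the top library. UPF1, the helicase of nonsense-mediated decay, was called at −0.49 ± 0.26. DDX6, another helicase of the mRNA decay list, was called in the opposite direction at 0.41 ± 0.14 (SD, n = 5 sgRNAs each). CNOT1, the scaffold of CCR4-NOT, had 0.41 and the exonuclease XRN1 had 0.45, neither of them called. The decay list of 15 genes thus had 2 negative calls, 1 positive call and a median of −0.01.

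Cell-cycle genes of the anaphase-promoting complex list were below 0 in 13 of 20 cases, with a median of −0.16. FZR1, an activator of the complex, was called at −0.52 ± 0.25, and ANAPC4, a scaffold subunit, at −0.50 ± 0.26 (SD, n = 5 sgRNAs each, exact adjusted p = 0.0219 and 0.0378). The subunits ANAPC11 (0.23), CDC27 (0.23) and ANAPC7 (0.18) lay on the other side of 0.

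The remaining 8 negative calls fell outside the rule for named genes and are listed after their values were seen. They were the chromatin reader ZMYND11 (−0.71), the DNA end-binding protein XRCC5 (−0.71), the mRNA export factor MCM3AP (−0.62), the RNase P subunit RPP38 (−0.54), the chaperone NUDC (−0.53), the Rab regulator GDI2 (−0.47), HCCS (−0.47) and the kinetochore protein MIS12 (−0.44). In each of them all 5 sgRNAs were negative.

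The positive side was smaller and weaker. SEPHS2, which makes the selenium donor for selenoproteins, had 0.86 ± 0.44 (SD, n = 5 sgRNAs, exact adjusted p = 4.8e-05). From the bottom to the top library its sgRNAs went from 254 to 427, 817 to 1504, 651 to 1244, 2303 to 5003 and 634 to 2311 reads. PSTK, the kinase of the same pathway, had 5 positive sgRNAs and 0.40 ± 0.20 (exact adjusted p = 0.0926), whereas SEPHS1 had −0.17 and SECISBP2 0.05. The selenoprotein list had 4 of 7 genes above 0, a median of 0.05 and 1 call.

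CYB5R3, a reductase of cytochrome b5, had 0.78 ± 0.19 (SD, n = 5 sgRNAs, exact adjusted p = 2.9e-05). Its sgRNAs had 657, 333, 834, 797 and 354 reads in the bottom and 1084, 669, 1737, 1774 and 818 in the top library. SEPHS2 and CYB5R3 were the positive genes that remained called in each of the 15 alternatives. The other 8 were NSD1, a histone methyltransferase (0.55), LRRC59, an ER membrane protein (0.53), the glycolytic enzyme ENO1 (0.47), the histone gene HIST1H2AB (0.45), DDA1, a partner of a cullin ligase (0.44), SYVN1, a ligase of ER-associated degradation (0.43), DDX6 (0.41) and CHMP6, an ESCRT-III subunit of lysosomal sorting (0.41). All 5 sgRNAs were positive in each, adjusted exact p-values ran from 0.011 for LRRC59 to 0.04999 for SYVN1, and none of the 8 was called without its strongest sgRNA, although the means then stayed between 0.35 (ENO1) and 0.47 (NSD1).

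Lists around lysosomal delivery stayed near 0. The 19 ESCRT genes had a median of −0.01 with CHMP6 as the called gene, the 20 V-ATPase genes 0.02, and the 21 genes of endosome maturation 0.01 with none called. In the last list, WDR91, a Rab7 effector, had 0.54 ± 0.30 and 5 positive sgRNAs with an adjusted exact p of 0.0901. GAPVD1, an exchange factor of endocytic Rabs, had 0.47 and was not called. The 38 genes of ER folding and degradation had 27 members above 0, a median of 0.06 and 1 call, SYVN1. The median was 0.04 for 26 N-glycosylation genes, 5.6e-05 for 19 genes of clathrin, AP2 and dynamin, −0.06 for 24 Rab GTPases and 0.02 for 22 genes of SNAREs and fusion factors, with no call.

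DNA replication genes had the highest median of the lists with over 5 members, 0.11, with 28 of 40 above 0 and none called. POLD3, a polymerase delta subunit, had 0.60 ± 0.51 with 5 positive sgRNAs and an adjusted exact p of 0.131. Members of this list had a median of 1818 reads per sgRNA, against 2586 over all H23 genes, and the part of read depth in these values was not tested. Of the 51 lists, 28 had no called gene. Over all lists, 13 of the 49 called genes were in none, 9 negative and 4 positive.

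Where a gene had more than 1 start site, the phenotype could belong to a single site. Of 507 genes with at least 2 sites of 4 or more sgRNAs, the median difference between sites was 0.11. Among the largest were those in DCAF8 (−0.48 and 0.17), STAG2, a cohesin subunit (−0.33 and 0.24), EIF4G2 (−0.51 and 0.02) and the nucleolar protein NCL (−0.41 and 0.10). In EIF4G2 all sgRNAs of the first site lay between −0.77 and −0.27 and those of the second between −0.15 and 0.13, so the sites did not overlap. These differences were picked for their size and have no test. With all sgRNAs of a gene pooled over sites, SEC61A1 (−0.37), EIF4G2 (−0.24) and LRRC59 (0.31) were no longer called.

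Listing under more than 1 gene concerned 913 members. There were 186 pairs of genes with a common sgRNA, 65 of them with 3 or more, and in these 65 the larger mean of a pair in size had a median of 0.12. After VPS29 and RAD9B, the strongest pairs were CENPA with SLC35F6, DCAF8 with PEX19, and HYAL1 with HYAL3 and NAT6. DCAF8 and PEX19 share all 5 sgRNAs of their site, so their common value of −0.48 ± 0.48 is 1 measurement. The second start site of DCAF8, which PEX19 does not share, had 0.17. CENPA, the centromeric histone, had −0.52 at a site of its own, whereas its shared site gave SLC35F6 −0.16. HYAL1 had −0.35 at its own site, which was −0.04 without the strongest sgRNA, and HYAL3 and NAT6 had −0.00167 and −0.00464.

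Several large means came from 1 sgRNA with few reads. In REG4, 1 sgRNA had 75 reads in the bottom and 1 in the top library, a ratio of 0.0112 (exact binomial 95% interval 0.00028 to 0.0646, counting error only), while the other 4 averaged 0.06. In SDHB, 1 sgRNA had 55 reads in the bottom and 0 in the top library, which is at least 21.8-fold lower at a floor of 3 reads per library, and the other 4 averaged −0.00093. In SLC11A1, 1 sgRNA had 0 and 67 reads, at least 18.8-fold higher in the top library, and the other 5 averaged −0.16. One sgRNA of CNTN6 (118 and 16 reads) was at −3.13 and one of SH3RF3 (261 and 43 reads) at −2.85, with the others of both genes inside the 1st to 99th percentiles of the NTC sgRNAs. None of these 5 genes was called. Of the 25 genes at or below −0.5 without a call, 21 lay above −0.5 without their strongest sgRNA. Of the 30 with a call, 6 did.

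Among single sgRNAs with at least 500 reads over both libraries, the lowest was one against THOC5, an mRNA export factor, with 421 and 99 reads (−2.34 with a counting SD of 0.16), while the mean of THOC5 without it was −0.24. The next were the sgRNAs of VPS26A, RAD9B and VPS29 given above. The highest were one against ADA, with 198 and 739 reads (1.65), the SEPHS2 sgRNA at 1.62, and sgRNAs against DNAH9 (229 and 736 reads, 1.44), CKAP5 (197 and 622 reads, 1.41) and NCOA6 (146 and 453 reads, 1.39). ADA, DNAH9, CKAP5 and NCOA6 were not called. Like that of THOC5, these 4 sgRNAs had summed reads in the range (110 to 1703) where the NTC sgRNAs had an SD of 0.40. For CKAP5 this sgRNA belonged to another start site than the one tested, which had a mean of 0.05.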

How the data were processed

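The sgRNA cassettes of sorted cells were sequenced. The authors trimmed reads to 38 bp, and ScreenProcessing (version 0.1) tallied them. The deposited values are raw, unnormalized counts of 209070 sgRNAs in each of 6 libraries. No molecular identifiers were used, so reads can be PCR copies, and printed intervals and counting SDs reflect read sampling alone. No source used here gives a genome build for the sgRNA positions, so neither sgRNA coordinates nor sgRNA sequences are reported. Members and gene lists were chosen with earlier results of these data known.

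An sgRNA belonged to the sublibrary with its largest share of reads and needed 50 reads in either library. An sgRNA with a count of 0 had 1 added in both libraries. Of 33473 sgRNAs with their largest share in H23, 83 missed the minimum; 473 members had under 90% of their summed shares in H23, with 41.8% as the lowest. Genes needed 2 sgRNAs at a start site, and of several sites that of lower p was used. The adjustment did not account for this choice, so p-values are too low for the 513 H23 genes with more than 1 tested site. Of the targeting members, 235 were in genes tested in another sublibrary or at no site. Named were the 12 lowest and 12 highest called genes whose sgRNAs, at least 4, shared one sign, list members called or at 0.5 or more in size (up to 6 per list by p), all members of the Retromer list and of a list of ubiquitin genes, the 5 largest differences between start sites, the 5 strongest pairs that share at least 3 sgRNAs, 5 genes with 1 distant sgRNA, and the 5 lowest and 5 highest sgRNAs with at least 500 reads. Some results that the rule names are not reported here. The lists of 51 gene groups are described by counts and medians. Of the 6016 gene names, 5718 matched RefSeq (GRCh38.p14) symbols, 294 matched synonyms and 4 matched neither; promoter windows are RefSeq's.

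Computations used Python 3.11.15, numpy 2.4.6, pandas 2.3.3, scipy 1.17.1 and numba 0.67.0. With 1 library per quartile, no count model has residual degrees of freedom, and edgeR (4.0.16) gave only TMM factors for an alternative centring. The code was tested on simulated data. The 15 alternatives changed the read minimum (10 or 100 in either library, 50 in both), the added count (1 or 10 to all), the centring (all sgRNAs or TMM), the gene value (median, without the strongest sgRNA, start sites pooled, without sgRNAs listed under another gene), the comparison set (all targeting sgRNAs), the purity (90% of shares in H23), the depth (deeper library thinned) or the adjustment (H23 genes alone).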

Additional observations from a re-analysis of the deposited data

Results flagged for a closer look

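The H23 libraries also held reads of sgRNAs that belong to the other pools. Of 71080 sgRNAs assigned to H17 or H456, 30598 had more than 3 reads in the H23 bottom library and 22760 in the H23 top library. The median over these sgRNAs was 3 and 2 reads, and they made up 1.78% and 1.56% of the reads. In both libraries, 389 of them had at least 200 reads, and 315 of these 389 were listed under more than 1 gene. These reads entered no comparison.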

How the results depend on the processing

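No paired analysis was possible because each quartile has 1 library and the labels give no replicate numbers that groups share, and for the same reason no library could be left out. Over the 15 alternatives, negative calls ranged from 13 to 44, positive calls from 2 to 12, genes at or below −0.5 from 28 to 62 and genes at or above 0.5 from 2 to 14. Without the strongest sgRNA of each gene there were 13 negative and 2 positive calls, 28 genes at or below −0.5 and 2 at or above 0.5; this leaves fewer sgRNAs per gene. With a minimum of 10 reads there were 14 genes at or above 0.5. The cause was not tested for the latter. The SD of the NTC sgRNAs stayed between 0.275 and 0.281. Neither the centring nor the median as gene value can change the calls, which compare the ranks of the same sgRNAs. In each analysis 14 genes were called: CBLL1, CCS, CNOT4, CYB5R3, EIF3G, FIP1L1, GSTP1, PREB, RCL1, RPS27A, SDAD1, SEPHS2, UNC50 and VPS29. SYVN1, nearest to the threshold, was lost under 7 alternatives. At an unadjusted p under 0.05 there were 314 negative and 207 positive genes. No replicate sort exists, so the spread between cultures is unknown, and genes with few reads had wider errors.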
